A study of Mus musculus with 2 samples.

Results

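Among the C1qa cells of the diseased kidney, a class was set apart by the summed message of 3 chemokine genes, Pf4, Ccl7 and Ccl12. A cell was counted in it when C1qa reached 40 unique molecular identifiers (UMIs, 1 per captured RNA molecule) per 10000 UMIs of the cell, when Pf4, Ccl7 and Ccl12 together reached 40 per 10000, when Cd3d, Cd3e and Cd3g had no UMI, and when fewer than 2 of Cd163, Lyve1, Cbr2 and Ltc4s had one. The class was chosen by these measured levels, so its values for those 11 genes only describe the choice, and every comparison of the same cells is given without a test. The rule found 315 cells, which are called chemokine-high cells below: 58 in hashed sample 1 and 257 in hashed sample 2. They were 12.4% of the 2549 C1qa cells and 4.77% of the 6601 cells kept.

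The cells came from kidneys of B6 mice, labelled as aristolochic acid nephropathy (AAN) with chronic kidney disease at week 2; aristolochic acid is a plant toxin that damages the tubules. Viable CD45-positive cells, that is leukocytes, were sorted from Liberase-digested tissue for 3' single-cell RNA sequencing, and 2 hashed samples, told apart by hashtag antibodies, were deposited as 1 sample. The labels do not say whether the hashed samples were separate animals: the title names 1 mouse and adds week 1, and elsewhere the protocol speaks of human tissue and the cell type is given as mesenchymal stem cells. The names of the deposited matrices carry m1 and m2, which by itself does not settle it. No untreated kidney was analysed here, nor was the expression of the Visium section, so all comparisons are between cell classes of the same tissue, and agreement between the hashed samples is agreement within 1 deposited sample.

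Ccl7 and Ccl12 encode secreted chemokines of the monocyte chemoattractant family, and both draw cells carrying the receptor Ccr2 out of the blood. Ccl2, which also acts on Ccr2, and Ccl8 belong to the same family. Pf4 encodes platelet factor 4, a chemokine stored in platelet granules and also transcribed by some tissue macrophages. C1qa encodes a chain of complement C1q, which macrophages make, and resident macrophages of the kidney take up debris and present peptides to CD4 T cells on MHC class II.

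The genes lie in 2 chemokine clusters. In GRCm38.p6, Ccl2 spans 82035577 to 82037452 and Ccl7 82045712 to 82047525 of chromosome 11, 8.26 kb apart, and Ccl12 follows at 82101845 to 82103399. Ccl8 starts 11.8 kb past the end of Ccl12. Pf4 lies at 90772435 to 90773383 of chromosome 5, 2.37 kb from the platelet chemokine gene Ppbp. The 250 bases before the start of Ccl12, Ccl8 and Pf4 are shown, from RefSeq on GRCm38.p6, because Ccl12 and Pf4 chose the class while Ccl8, the neighbour of Ccl12, had another pattern. All 3 genes are on the plus strand, and capitals mark letters that match a searched motif on either strand.
Ccl12, chr11:82101595-82101844, plus strand: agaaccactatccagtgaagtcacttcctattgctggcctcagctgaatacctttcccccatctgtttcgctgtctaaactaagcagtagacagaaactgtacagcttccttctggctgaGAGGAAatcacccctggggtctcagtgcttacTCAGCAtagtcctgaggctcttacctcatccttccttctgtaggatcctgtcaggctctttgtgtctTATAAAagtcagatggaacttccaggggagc
Ccl8, chr11:82114935-82115184, plus strand: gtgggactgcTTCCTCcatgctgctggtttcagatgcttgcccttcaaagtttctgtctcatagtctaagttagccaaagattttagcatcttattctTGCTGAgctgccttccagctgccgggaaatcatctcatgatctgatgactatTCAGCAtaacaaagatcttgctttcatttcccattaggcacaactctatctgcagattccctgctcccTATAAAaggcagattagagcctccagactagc
Pf4, chr5:90772185-90772434, plus strand: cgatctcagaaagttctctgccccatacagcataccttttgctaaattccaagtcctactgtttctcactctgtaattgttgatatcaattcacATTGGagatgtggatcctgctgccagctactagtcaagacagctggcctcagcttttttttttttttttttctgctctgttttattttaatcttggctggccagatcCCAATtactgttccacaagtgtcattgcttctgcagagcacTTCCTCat

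Of the 6 motifs searched on both strands, GAGGAA, the core letters bound by the myeloid factor PU.1, occurred once in each window, and 23.3% of all 32851 promoter windows of this length hold it. TATAAA, the TATA box, stood 31 bases before the start of Ccl12 and 32 before that of Ccl8 (12.4% of windows), while Pf4 had CCAAT 2 times (33.8%). TGCTGA, part of the MAF recognition sequence, occurred 1 time at Ccl12, 2 times at Ccl8 and 0 times at Pf4 (16.1%). TGANTCA (AP-1, 6.75%) and GGNNTTTCC (part of a kappaB site, 4.93%) were in none of the 3. These are letter matches in short windows and say nothing about binding.

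After filtering, 3115 and 3486 cells were kept (of 2 values, the first belongs to hashed sample 1), with medians of 5688 and 6570 UMIs per cell and 0 barcodes shared. Chemokine-high cells had medians of 6322 and 6679 UMIs, against 6244.5 and 6891 in the other C1qa cells, so depth was alike. Levels of a class are its summed UMIs scaled to a total of 1000000 (CPM). Intervals are exact 95% intervals of the counting error alone.

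The label calls these cells resident macrophages. Besides C1qa, which the rule required, the 8 further markers of the resident macrophage set were all detected in both hashed samples. They were also all detected in T cells (2 or more Cd3 UMIs, C1qa under 40 per 10000), so detection alone says little. With C1qa, which alone had 8504 and 7345 CPM, the set summed to 25631 and 23494 CPM in chemokine-high cells. It summed to 21749.5 and 21489 CPM in the other C1qa cells and to 616 and 1204 CPM in T cells. The rule asked for C1qa and the T cells were chosen for little of it, so the gap between them partly describes the choice. C1qb, another C1q chain, had 8511 and 8298 CPM against 7550.2 and 7611 CPM in the other C1qa cells. Csf1r, the receptor for macrophage colony-stimulating factor, had 918 and 794 against 750.05 and 709 CPM, and Adgre1, which encodes F4/80, had 206 and 256 against 158 and 198 CPM. Against the labelled mesenchymal cell type, the 6 fibroblast or pericyte markers summed to 22.3 and 13.5 CPM, with Col1a1 and Col3a1 at 0. Residence itself, the life of a cell in the tissue, is not something these counts measure.

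Because Pf4 is a platelet gene, platelet markers were examined in the same cells. Of the 11 platelet or megakaryocyte markers, 10 were at 0 in hashed sample 1 and 8 in hashed sample 2, among them Itga2b, Gp9, Gp1ba, Gp1bb, Gp5 and Gp6, the surface receptors that define platelets. The set summed to 2.48 and 10.2 CPM, against 5.14 and 3.79 CPM in the other C1qa cells, beside 1795 and 2744 CPM of Pf4. Ppbp, which platelets carry with Pf4, had 0 UMIs in hashed sample 1. In hashed sample 2 it had 15 UMIs in 10 chemokine-high cells, 8.09 CPM against 1.30 CPM in the other C1qa cells, and the part of platelet RNA in the Pf4 of those cells was not tested. Of the other foreign sets, NK cell markers summed to 2.48 and 0 CPM, red blood cell markers to 0 and 0.539 CPM, and the proximal tubule set to 164 and 155 CPM against 162 and 166 CPM in the other C1qa cells. The classical monocyte set had 305 and 470 against 522 and 686 CPM, and the type 2 dendritic cell set 305 and 415 against 395 and 470 CPM. The patrolling monocyte set had 109 and 127 against 122 and 160 CPM, and the B cell set 134 and 166 against 137 and 163 CPM. A Ccr2 UMI was in 51.7% and 65.4% of chemokine-high cells, against 63.3% and 75.4% of the other C1qa cells. Endothelial markers summed to 2.48 and 51.7 CPM against 9.66 and 5.52 CPM. In hashed sample 2 the 12 UMIs of the endothelial cadherin Cdh5 were all in 1 chemokine-high cell, and the part of that cell in the results was not tested.

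Free RNA reaches every droplet, and T cells, which should lack these chemokines, gave its size. A Pf4 UMI was found in 10.1% of 917 and 11.7% of 445 T cells, at median depths of 3972 and 3583 UMIs, and in 96.6% and 98.4% of the chemokine-high cells, which the rule on Pf4 favours. For Ccl2 the shares were 12.6% and 11.7% of T cells against 79.3% and 88.3%. With every cell thinned to 2000 UMIs, which leaves out 2 and 11 chemokine-high cells, Ccl2 was found in 67.9% and 71.1% of chemokine-high cells, 28.4% and 42.3% of other C1qa cells and 6.79% and 4.57% of T cells. Ccl2, which the rule did not use, was thus found more often than in T cells at the same depth.

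Chemokine-high cells were 5.69% of C1qa cells in hashed sample 1 (58 of 1020, exact interval 4.35 to 7.29) and 16.8% in hashed sample 2 (257 of 1529, 14.97 to 18.8). The intervals do not overlap, but with 1 share per hashed sample the difference has no replicate behind it. The threshold sets these sizes: at 30 per 10000 the shares were 8.73% and 24.3%, and at 60 per 10000 they were 2.75% and 8.63%. Hashed sample 2 had about 3 times the share of hashed sample 1 at each of those thresholds. A further 14 and 46 cells passed the chemokine level but had 2 or more of Cd163, Lyve1, Cbr2 and Ltc4s, and so belong to the neighbouring class.

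The summed level of Pf4, Ccl7 and Ccl12 ran from 40.4 to 188 per 10000 around a median of 58.6 in hashed sample 1, and from 40.1 to 178 around 61.4 in hashed sample 2. About as many cells lay at 40 to 60 (30 and 125 cells) as above it, and only 8 and 66 cells reached 80. Just inside the threshold, at 40 to 50, stood 19 and 74 cells, and just outside, at 30 to 40, stood 31 and 114 cells of otherwise the same kind. In hashed sample 2 these neighbours were much alike, with Ccl2 at 997 and 961 CPM, Mrc1 at 1310 and 1307 CPM and MHC II-low cells at 52.7% and 50.9%. In hashed sample 1, on fewer cells, they were less alike, with Ccl2 at 1353 and 1775 CPM, Mrc1 at 1523 and 741 CPM, Ccr2 at 145 and 369 CPM and MHC II-low cells at 15.8% and 12.9%. The threshold has many cells close to it on either side, so the class is a range of that level.

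The 3 genes did not contribute evenly. UMIs of all 3 were present in 74.1% and 75.1% of the chemokine-high cells. Ccl7 with Ccl12 reached 40 per 10000 by themselves in 29 and 113 cells and Pf4 alone in 5 and 45 cells, while both did so in only 0 and 8 cells. The remaining 24 and 91 cells passed on the sum. Per cell, Pf4 had a median of 16.7 per 10000 and a highest value of 186 in hashed sample 1, and 23.4 and 139 in hashed sample 2. For Ccl12 the medians were 24.1 and 20.6 and the highest values 130 and 122, and for Ccl7 the medians were 7.80 and 10.5 and the highest 54.2 and 110. Cells with much Pf4 thus had little Ccl7 and Ccl12, a split that a rule on their sum itself favours.

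**Figure D1:**
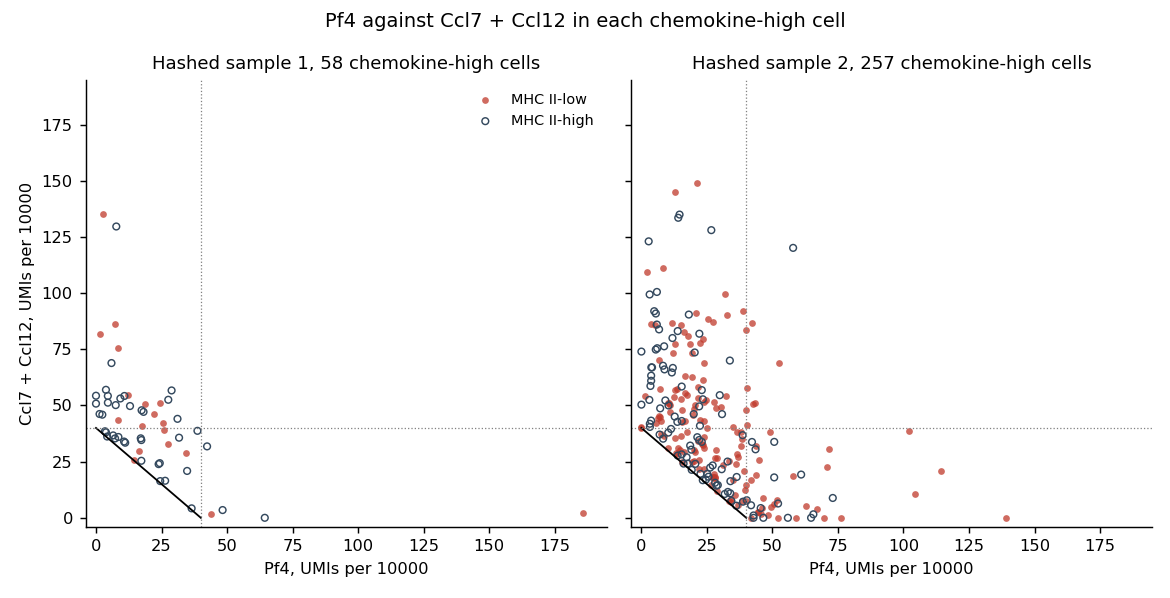
Each point is 1 chemokine-high cell, with its Pf4 level on the x axis and its summed Ccl7 and Ccl12 level on the y axis, both in UMIs per 10000; filled points are MHC II-low cells and open points the rest, the solid line is the threshold of 40 on the sum, and dotted lines mark 40 on each axis. Only 0 and 8 cells lie in the upper right field, where both axes pass 40.

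Ccl2, which the rule did not use, had the highest ratio after Ccl7 and Ccl12, which it did use. In CPM, chemokine-high cells had 2482 and 2240, cells with 2 or more of Cd163, Lyve1, Cbr2 and Ltc4s had 760 and 1037, and C1qa cells with little Pf4, Ccl7 and Ccl12 had 431 and 575. The chemokine-high values lay above all 4 values of the neighbouring classes. Against all other C1qa cells (453 and 648 CPM) the ratio was 5.48 (5.09 to 5.89) and 3.46 (3.32 to 3.60). The cell richest in Ccl2 held 17.9% and 6.62% of the chemokine-high cells' Ccl2 UMIs.

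Ccl8 behaved differently, although it is the nearest neighbour of Ccl12 in the family. It stood at 1038 and 393 CPM in chemokine-high cells, 549 and 415 CPM in other C1qa cells, and 2351 and 1464 CPM in cells with 2 or more of the 4 genes. A UMI of Ccl8 was found in only 32.8% and 27.2% of chemokine-high cells, and 1 cell held 40.4% and 41.7% of its UMIs. Ccl8 was thus highest in the neighbouring class in both hashed samples, while Ccl2 was highest in the chemokine-high class. Ccl7 and Ccl12 were highest there too, but the rule selected for them. The eotaxin genes, which were on the same gene list, had little message: Ccl11 had no UMI in chemokine-high cells, and Ccl24 stood at 32.3 and 3.23 CPM, with 92.3% of its UMIs in hashed sample 1 from 1 cell.

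**Figure D2:**
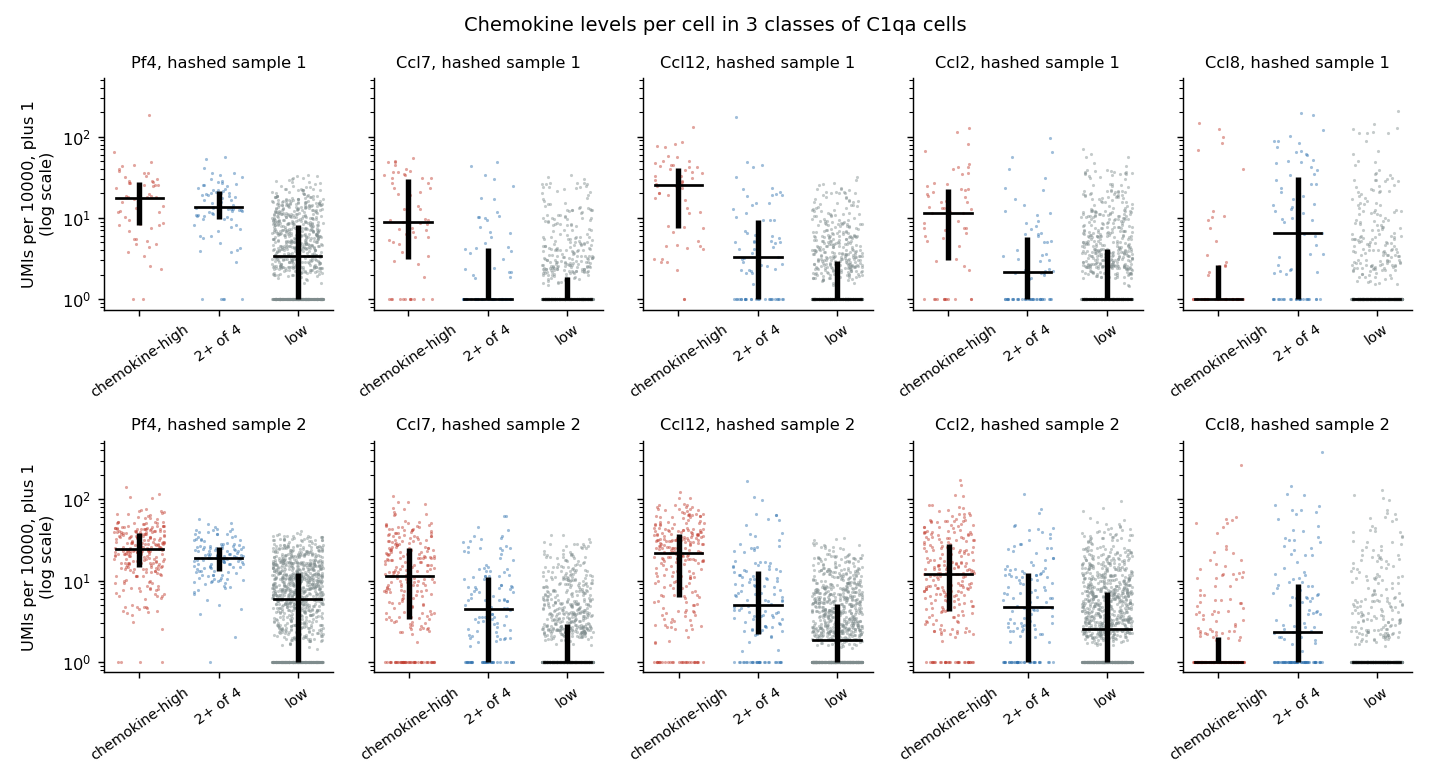
Levels of 5 chemokine genes in single cells (UMIs per 10000 plus 1, log axis), by class and hashed sample; each point is a cell, the horizontal line the median and the thick bar the interquartile range, with "2+ of 4" for cells with 2 or more of Cd163, Lyve1, Cbr2 and Ltc4s and "low" for cells under the chemokine threshold. Cells with a Cd3 UMI are left out, and the "low" cells have fewer than 2 of those 4 genes. Pf4, Ccl7 and Ccl12 chose the first class and the "low" class. Ccl2 follows them, while Ccl8 is highest in the second class.

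Ccl2 was also set against the chemokines of the rule cell by cell. After thinning to 2000 UMIs, Ccl2 and Ccl7 had a Spearman correlation of 0.51 over 56 cells and 0.53 over 246 cells. The correlation of Ccl2 with Ccl12 was 0.03 and 0.24, and that of Ccl2 with Pf4 was -0.34 and -0.32. Over all thinned C1qa cells (956 and 1446), Ccl2 and Ccl7 had 0.41 and 0.46, Ccl2 and Ccl12 0.25 and 0.31, and Ccl2 and Pf4 0.09 and 0.13. These values describe cells of 1 deposited sample. Selection on the sum lowers correlations among Pf4, Ccl7 and Ccl12, and can also lower those of Ccl2 with them. In hashed sample 2, the 45 cells passing on Pf4 alone had Ccl2 at 628 CPM, against 3511 CPM in the 113 cells passing on Ccl7 and Ccl12, and in hashed sample 1 the 5 such cells had 0 against 3602 CPM in 29 cells. Ccl7 helped to define those 2 groups, so the split itself bears on a gene that goes with it. Across genes, 64 were higher and 72 lower in the Pf4-led cells (2.4% and 2.69% of 2672 measured). Dissociation stress genes were among the latter, with 6 of 15 lower, and their part was not tested. With 5 cells on that side in hashed sample 1, and 42 higher to 130 lower under trimmed mean of M-values (TMM) scaling, those counts are not read further.

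Genes entered a comparison at 50 CPM in 1 of the classes compared, in both hashed samples. Higher and lower mean a ratio past 1.5-fold, after adding 10 CPM, in the same direction in both. Against all other C1qa cells, with the genes of the rule left out, 8 of 2603 measured genes were higher (0.307%) and 13 lower (0.499%). The median gene had a log2 ratio of 0.06 and 0.03. These other C1qa cells are a mixed group, and its classes gave more genes when compared separately. Against cells with little Pf4, Ccl7 and Ccl12, 24 were higher and 17 lower. Against cells with 2 or more of Cd163, Lyve1, Cbr2 and Ltc4s, 42 were higher and 43 lower. Against the pooled group, few genes beyond the chemokines passed 1.5-fold in both hashed samples.

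Higher beside Ccl2 were Ch25h, which makes the oxysterol 25-hydroxycholesterol, and C5ar1, the receptor for the complement fragment C5a. Ch25h stood at 169 and 158 CPM against 41.0 and 58.3 CPM, a ratio of 4.12 (3.11 to 5.40) and 2.71 (2.34 to 3.13). C5ar1 stood at 293 and 375 CPM against 151 and 211 CPM, a ratio of 1.94 (1.59 to 2.36) and 1.78 (1.63 to 1.94). Marcksl1, a membrane and actin regulator, had ratios of 2.05 and 1.84, Rgl1, an activator of Ral proteins, 2.05 and 1.72, and Ehd1, an endocytic recycling protein, 1.79 and 1.63. All of these were spread over many cells, the richest holding at most 11.9% of a gene's UMIs. Cxcl10, an interferon-induced chemokine for T cells, was not: its 238 and 171 CPM, against 61.1 and 56.4 CPM, came to 39.6% and 52.5% from 1 cell. With the richest chemokine-high cell of each hashed sample left out, an alternative chosen after seeing the data, Cxcl10 no longer passed 1.5-fold in both. The other side was left unchanged, so that removal can only lower a ratio. The last of the 8 was an unnamed gene model.

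Lower were Mmp12, the macrophage elastase, at 14.9 and 27.0 CPM against 122 and 193 CPM, and Ear2, a ribonuclease from a family of near-identical copies and so uncertain in its counts, at 9.93 and 3.77 CPM against 60.6 and 76.6 CPM. Itgax, which encodes CD11c, had 12.4 and 21.6 CPM against 52.0 and 68.4 CPM. Ratios of the aspartic protease Napsa were 0.257 and 0.194, of the fatty acid carrier Fabp5 0.290 and 0.366, and of Lgals3, galectin-3, 0.447 and 0.543. Calcium-binding S100a4 and S100a6 had ratios of 0.370 and 0.463 and of 0.475 and 0.577. Smpdl3a, a phosphodiesterase, had 0.517 and 0.488. The last of the 13, Crip1, fell outside the naming rule.

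**Figure D3:**
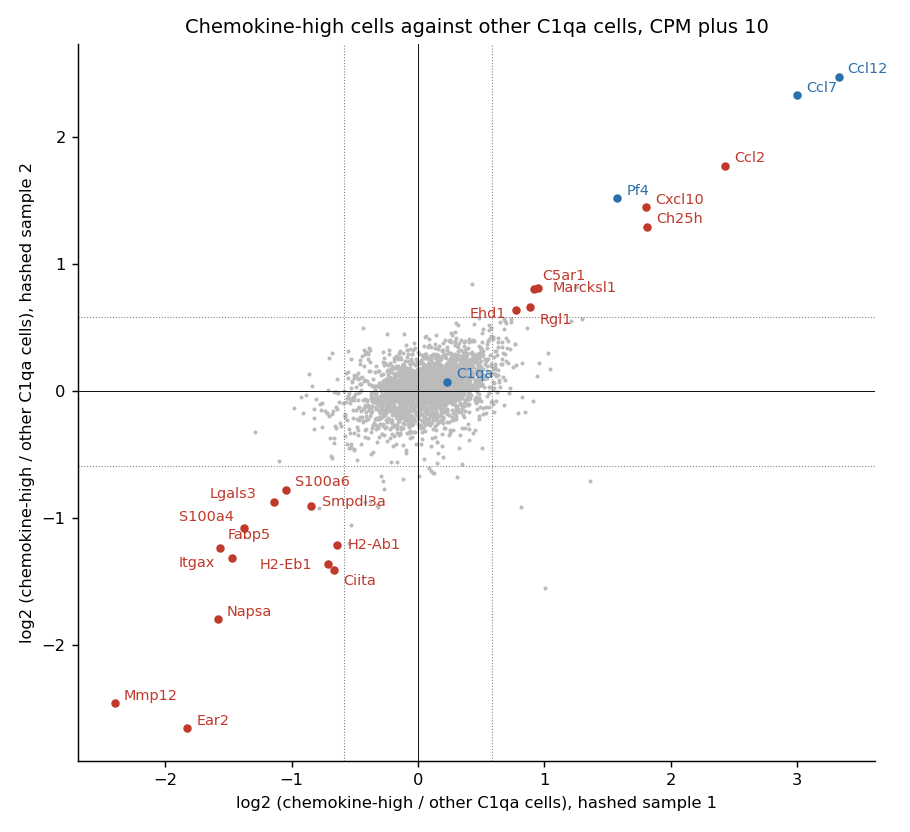
Each point is a gene measured in chemokine-high and other C1qa cells, with its log2 ratio (10 CPM added) in hashed sample 1 on the x axis and in hashed sample 2 on the y axis; dotted lines mark 1.5-fold, blue names are genes of the rule and red names the genes counted as higher or lower. Ccl2 lies nearest to the chemokines of the rule, and Mmp12 and Ear2 lie farthest on the lower side.

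Of the 26 gene lists, MHC class II had 3 of 7 measured genes lower (H2-Ab1, H2-Eb1 and Ciita), and 5 of 7 under TMM scaling, with H2-Aa and Cd74. Its median log2 ratio was -0.55 and -1.19. The monocyte-derived list had 3 of 5 lower (S100a4, S100a6 and Ear2), with a median of -1.04 and -0.78. Lipid handling had 1 of 16 higher, Ch25h, and 2 lower, Fabp5 and Lgals3. The long-lived tissue macrophage list had 0 of 6 called and medians of 0.66 and 0.46, just around the fold: Gas6, a bridge to apoptotic cells, had ratios of 1.74 and 1.52, and the scavenger receptor Stab1 had 1.502 and 1.42. Ccr2, the receptor for Ccl2, Ccl7 and Ccl12, had 295 and 459 CPM against 481 and 666 CPM, a ratio of 0.615 (0.507 to 0.738) and 0.690 (0.641 to 0.741), short of 1.5-fold in hashed sample 2. For lysosome and cathepsin genes (19 measured), MHC class I (8), engulfment genes (10), macrophage transcription factors (18) and cell cycle genes (5), 0 were called in either direction. Of the resident macrophage identity list, 0 of 15 measured genes were called.

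The MHC class II genes were examined because the study set out to describe MHC II-negative macrophages, and the rule did not use them. H2-Ab1 had 4076 and 2216 CPM against 6380 and 5151 CPM in the other C1qa cells, and Cd74, the invariant chain, 12356 and 7384 against 17861 and 15334 CPM. Ciita, which switches these genes on, had 42.2 and 25.3 against 72.6 and 83.7 CPM. All chemokine-high values were below those of the other cells of the same hashed sample, and more so in hashed sample 2.

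Counted by cell, 31.0% (18 of 58, interval 19.5 to 44.5) and 60.3% (155 of 257, 54.0 to 66.3) of the chemokine-high cells were MHC II-low, with the sum of H2-Ab1, H2-Eb1 and H2-Aa under 40 per 10000. Among the chemokine-high cells of hashed sample 1 under 60 per 10000, an alternative chosen after seeing the data, it was 16.7%. The share was 13.2% and 29.2% in cells with little Pf4, Ccl7 and Ccl12, and 62.8% and 85.3% in cells with 2 or more of Cd163, Lyve1, Cbr2 and Ltc4s. As a whole, chemokine-high cells thus stood between the other 2 classes in both hashed samples. The order was the same with the dividing level at 20 or at 80 per 10000. T cells, which lack these genes, were 97.2% and 96.6% MHC II-low, with median levels of 5.54 and 6.58 per 10000, so a small level is also what free RNA gives.

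The share of MHC II-low cells was also followed over the chemokine level. In hashed sample 2 it was 6.79% of the 162 cells with no UMI of the 3 genes, 19.8% above 0 to 10 per 10000, 36.6% at 10 to 20, 48.5% at 20 to 40, 59.2% at 40 to 80 and 63.6% from 80 on. In hashed sample 1 the same steps gave 9.27%, 8.65%, 23.8%, 20.8%, 26% and 62.5%. That series has no steady order between 10 and 80 per 10000, and its last value rests on 8 cells. Over the same 6 steps Ccl2 went from 156 to 3765 CPM and from 252 to 3875 CPM, the mannose receptor Mrc1 from 420 to 1562 and from 413 to 1396 CPM, and Ccr2 from 681 to 219 and from 1154 to 365 CPM. Median depth was lower at the level of 0 (4881 and 5231 UMIs) than from 80 on (8735 and 7663 UMIs), and its part in these trends was not tested.

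**Figure D4:**
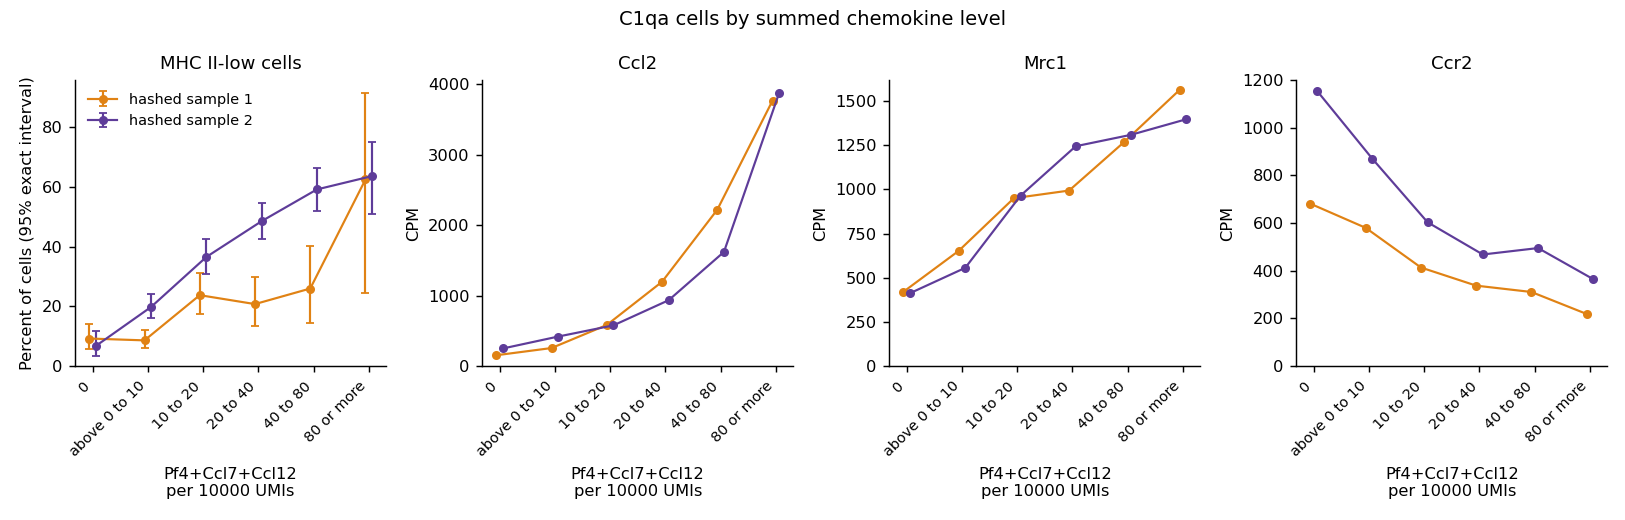
C1qa cells with no Cd3 UMI and fewer than 2 of Cd163, Lyve1, Cbr2 and Ltc4s, binned by their summed Pf4, Ccl7 and Ccl12 level (x axis, per 10000 UMIs): the percent of MHC II-low cells with exact 95% intervals, and the CPM of Ccl2, Mrc1 and Ccr2, 1 line per hashed sample. The last 2 bins are the chemokine-high cells, and the last bin of hashed sample 1 holds 8 cells.

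Because the classes differ in MHC class II, the comparison was repeated between cells on the same side of that level, an alternative chosen after seeing the data. Among MHC II-low cells (18 against 171 and 155 against 454), 4 of 2761 genes were higher (0.145%) and 9 lower (0.326%). Among the MHC II-high cells (40 against 791 and 102 against 818), 22 of 2580 were higher (0.853%) and 18 lower (0.698%). Ccl2, Ch25h and C5ar1 were higher on both sides, and the last of the 4 was the unnamed gene model. In MHC II-low cells Ccl2 had 3277 and 2174 CPM against 705 and 707 CPM, and in MHC II-high cells 2038 and 2346 against 393 and 611 CPM. Ch25h had 166 and 177 against 33.1 and 48.4 CPM in the first and 170 and 128 against 42.9 and 64.5 CPM in the second. Mmp12, Fabp5 and Lgals3 were lower on both sides, Mmp12 at 6.93 and 15.7 against 55.6 and 63.8 CPM among the MHC II-low cells.

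Other genes were near the same level among the MHC II-low cells. There, Gas6 was at 243 and 239 CPM against 224 and 257 CPM, F13a1 at 741 and 385 against 605 and 470 CPM, and Stab1 at 1109 and 838 against 798 and 847 CPM, so that none passed 1.5-fold and each was higher in hashed sample 1 and lower in hashed sample 2. Among MHC II-high cells Gas6 had 124 and 156 against 65.1 and 60.5 CPM and was counted as higher. F13a1, at 236 and 181 against 166 and 79.7 CPM, and Stab1, at 398 and 551 against 348 and 303 CPM, were not, since they passed 1.5-fold in hashed sample 2 alone. Ccl8 was higher there too, at 890 and 583 against 309 and 218 CPM, while among the MHC II-low cells it had 1303 and 275 against 1548 and 731 CPM. Of the 171 and 454 other cells on the MHC II-low side, 49 and 116 had 2 or more of Cd163, Lyve1, Cbr2 and Ltc4s. As a whole, that class had more Gas6, F13a1 and Ccl8 than the chemokine-high cells, and its part in these ratios was not tested. Whether the ratios differ between the sides was not tested.

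**Figure D5:**
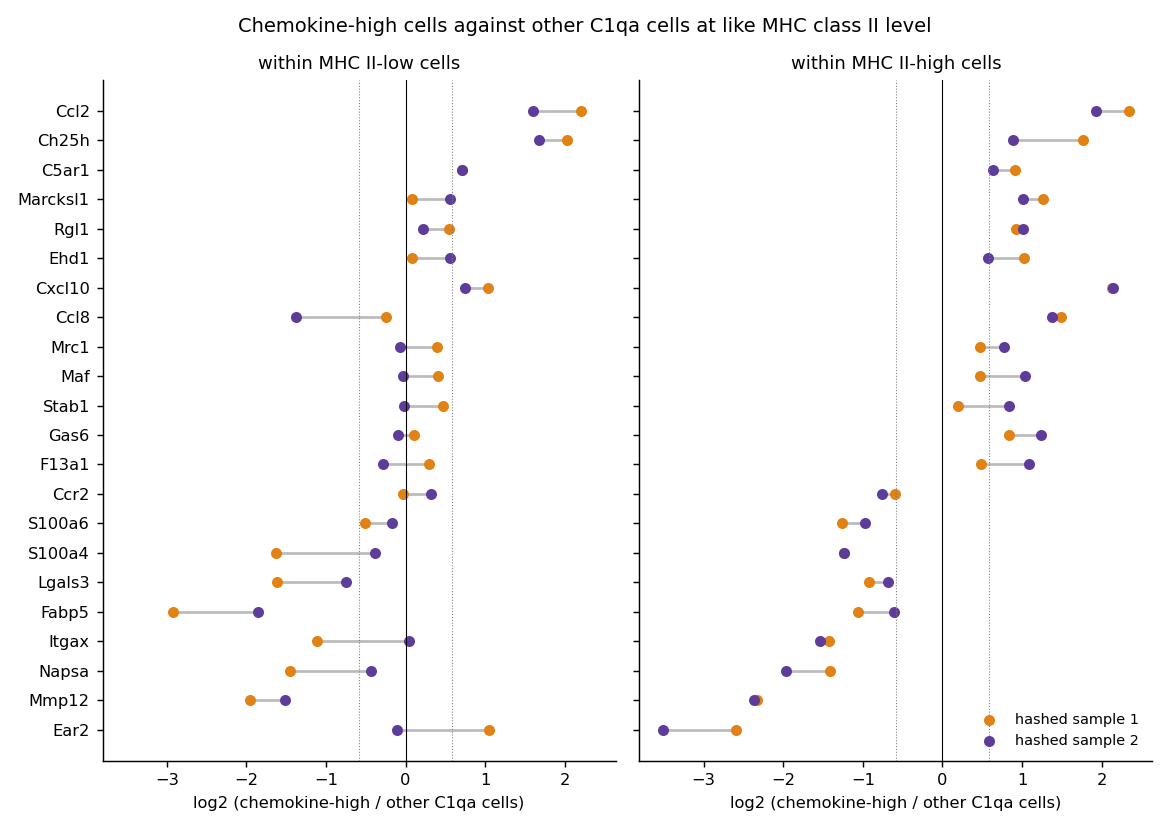
Log2 ratios of chemokine-high over other C1qa cells (10 CPM added) for 22 genes, among MHC II-low cells (left) and MHC II-high cells (right), with 1 point per hashed sample and dotted lines at 1.5-fold. Ccl2, Ch25h and C5ar1 lie right of the line on both sides, and Mrc1, Maf, Stab1, Gas6 and F13a1 lie within the lines among MHC II-low cells.

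Set against the 840 and 1092 C1qa cells with little Pf4, Ccl7 and Ccl12, 24 of 2604 genes were higher (0.922%) and 17 lower (0.653%). Here 5 of the 6 measured genes of the long-lived tissue macrophage list were higher, with median log2 ratios of 1.04 and 0.88 over the list and 0.07 and 0.04 over all genes. F13a1, a transglutaminase of clotting made by macrophages, had 417 and 307 CPM against 151 and 131 CPM, Mrc1 1318 and 1332 against 711 and 822 CPM, and Fcrls 137 and 457 against 53.9 and 226 CPM. The transcription factor Maf was higher as well, at 774 and 932 against 406 and 520 CPM. Itsn1, an endocytic scaffold, had 64.5 and 67.9 against 17.1 and 34.1 CPM. Of the 5 monocyte-derived genes 4 were lower, Ccr2 among them at 295 and 459 against 534 and 732 CPM, and so were 5 of 7 MHC class II genes.

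Against those 78 and 136 cells, 42 of 2733 genes were higher (1.54%) and 43 lower (1.57%). The lower genes included 6 of 7 of the long-lived list: the folate receptor gene Folr2 had 24.8 and 32.9 CPM against 144 and 110 CPM, F13a1 417 and 307 against 1127 and 832 CPM, and Gas6 166 and 207 against 366 and 376 CPM. Cd163, Lyve1, Cbr2 and Ltc4s, which belong to that list and chose the class, are left out of the count. Choosing cells by those 4 also favours genes that go with them, so the count partly describes the choice. Under TMM scaling 5 of the 7 were lower, without Mrc1. Also lower were Atp1b1, a subunit of the sodium pump, at 9.93 and 20.5 against 67.2 and 92.3 CPM, and Stard8 at 52.1 and 45.8 against 208 and 107 CPM. The acute-phase gene Saa3 had 24.8 and 0.539 against 122 and 93.1 CPM.

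Higher were 4 of 6 inflammatory genes and 4 of 7 further chemokines. Il1b, the cytokine interleukin-1 beta, had 251 and 245 CPM against 39.1 and 31.3 CPM, a ratio of 6.41 (4.11 to 10.4) and 7.82 (5.65 to 11.1). Cxcl2, a neutrophil chemokine, had 328 and 595 against 164 and 105 CPM, Ccl4 452 and 300.2 against 103 and 128 CPM, and the feedback inhibitor Socs3 218 and 108 against 37.5 and 42.3 CPM. Ch25h had 169 and 158 against 26.6 and 47.0 CPM. Dissociation stress genes, which digestion can induce, moved with them: 6 of 15 were higher, among them Junb at 591 and 406 against 245 and 268 CPM and Hspa1a, which has a near-identical copy, at 258 and 149 against 64.1 and 74.3 CPM, and 0 were lower. Their part in the inflammatory genes was not tested. Against the other C1qa cells as a whole, 0 of 16 stress genes and 0 of 6 inflammatory genes were called. The cells with 2 or more of the 4 genes were also deeper, at medians of 7801 and 8565.5 UMIs, as a rule on detected genes favours. With TMM scaling the split was 54 higher to 31 lower.

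Among the chemokine-high cells themselves, MHC II-low ones (18 and 155 cells) were compared with the rest (40 and 102). Of 2703 genes, 27 were higher (0.999%) and 33 lower (1.22%), with H2-Aa, H2-Ab1, H2-Eb1 and the genes of the rule left out. Under TMM scaling, which takes the median log2 ratio in hashed sample 1 from 0.09 to -0.08, the split was 12 to 44. F13a1 (741 and 385 against 236 and 181 CPM) and Fcrls (215 and 556 against 92.8 and 298 CPM) were higher under both scalings, and Stab1 (1109 and 838 against 398 and 551 CPM) under CPM scaling alone. Pmp22, Trpm7 and Hgsnat were higher too, on 10 to 20 UMIs each in hashed sample 1.

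Lower in the MHC II-low ones were the 4 other MHC class II genes measured, Cd74 at 1725 and 2056 against 18290.5 and 15943 CPM, and with them Cxcl10 at 13.9 and 54.2 against 364 and 360 CPM, Il1b at 27.7 and 148 against 375 and 400 CPM and Gadd45b, a stress response gene, at 6.93 and 14.9 against 139 and 95.5 CPM. Dissociation stress genes again moved with the inflammatory ones, with 7 of 16 lower, such as Junb at 215 and 318 against 801 and 548 CPM, and their part was not tested. The cell richest in Cxcl10, with 39.6% and 52.5% of the class's UMIs of that gene, was among the MHC II-high ones. Ccl2 had 3277 and 2174 against 2038 and 2346 CPM, higher in the MHC II-low cells of hashed sample 1, where 1 cell held 37.8% of their Ccl2 UMIs, and lower in those of hashed sample 2.

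Over all C1qa cells, the genes whose level per cell went most with that of Pf4, Ccl7 and Ccl12 together were Maf (Spearman correlation 0.34, mean of the hashed samples), Mrc1 (0.33), Ccl2 (0.33), Stab1 (0.32), the cathepsin gene Ctsb (0.32), F13a1 (0.31), Selenop (0.30), Lgmn (0.28), Fcrls (0.28) and Dab2 (0.25). The ranking took 2275 genes over the 956 and 1446 thinned cells. At the other end stood Cd74 (-0.43), H2-Eb1 (-0.42), H2-Aa (-0.41) and H2-Ab1 (-0.40). All these are modest values over cells of 1 deposited sample.

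The hashed samples differed within the class. Cxcl9, an interferon-induced chemokine, had 410 CPM in hashed sample 1 and 18.3 CPM in hashed sample 2, but 67.9% of the former came from 1 cell. Arg1, arginase 1, had 139 and 15.1 CPM, Gbp2, an interferon-induced GTPase, 124 and 18.3 CPM, and the adhesion gene Vcam1 181 and 31.3 CPM. In the other direction, the histone genes Hist1h1b (4.96 and 96.5 CPM) and Hist1h2ap (2.48 and 76.0 CPM), the replication factor Pclaf (7.45 and 61.4 CPM) and Stmn1 (69.5 and 246 CPM) were higher in hashed sample 2. These genes were named for their size after their values were seen, and 1 sample on each side allows no statement beyond these cells.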

How the data were processed

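Cells of both hashed samples of 1 single-cell sample were analysed. The deposited values are raw UMI counts per gene and cell, without normalization, and the matrices' headers give Cell Ranger 6.1.1 as their source. In the submitters' processing notes stand mm10, Seurat 4.3.0 and Cell Ranger 6.0. Each hashed sample has its own deposited matrix.

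Here, cells with at least 500 UMIs, 200 genes and at most 10% mitochondrial UMIs were kept (414 of 7015 barcodes removed). Before this filter, the barcodes held 20743037 and 25314154 UMIs. Class sums were scaled to CPM by the UMI total of each class. Cells are not replicates, so no test was made, and intervals (Clopper-Pearson, or exact conditional for ratios) cover counting error only. Doublets were not removed in the main analysis; Scrublet in scanpy 1.11.5 marked 40 cells (0.606%), of which 0 were chemokine-high, and their removal was an alternative. TMM factors came from edgeR 4.0.16. The fold rule was tested on simulated data.

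The class, the gene lists and the marker sets were chosen with earlier results of these data known. Named genes are, for the main comparison, the 12 largest and 12 smallest mean log2 ratios among called genes, and 6 each for the others, without genes of the rule, unnamed, mitochondrial, ribosomal and receptor or sex-linked genes, and with at most 4 per list; list examples were added. Promoter sequences of 3 of the 6 genes sought (Ccl12, Ccl8, Pf4) were in the RefSeq table used. The Visium files were not used here.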

Additional observations from a re-analysis of the deposited data

How the results depend on the processing

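Removing the cells marked by Scrublet left the counts of higher and lower genes the same in all 5 comparisons. Only 10 and 2 C1qa cells were marked, and 0 of them were chemokine-high. Comparisons among the chemokine-high cells therefore could not change, and the others could change little. The share of chemokine-high cells moved with the rule: 8.73% and 24.3% at 30 per 10000, 2.75% and 8.63% at 60, and 3.73% and 10.2% with none of Cd163, Lyve1, Cbr2 and Ltc4s allowed. In hashed sample 2 the MHC II-low share was 48.6% with the dividing level at 20 and 69.3% at 80. In hashed sample 1 it was 16.7% in cells under 60 per 10000, an alternative chosen after seeing the data. Against the other C1qa cells, 8 higher and 13 lower genes became 3 (Ccl2, Ch25h and Cxcl10) and 6 at a fold of 2, 25 and 31 with 60 per 10000 for the class and under 40 for the others, 129 and 68 in hashed sample 1 alone (58 cells) and 15 and 35 in hashed sample 2 alone. The higher genes were 13 with a pseudocount of 1 CPM, 17 after thinning to 2000 UMIs (7 of them among the 8), 4 among MHC II-low cells and 22 among the MHC II-high ones, the last 2 chosen after seeing the data. After that thinning 17 genes were lower, and only 9 of them were among the 13 lower genes of the main comparison. The lower genes were 23 at 20 CPM, 36 without a filter and 21 with each gene's richest chemokine-high cell left out. That removal, also chosen after seeing the data, left the other side unchanged and can only lower a ratio. Within MHC II-low cells the mean log2 ratio of Ear2 turned to 0.47 and that of H2-Ab1 to 0.0079, Ear2 on levels of 4.84 to 20.8 CPM and the latter by the construction of the split. With genes from 20 CPM on, the cells with 2 or more of the 4 genes gave 66 higher and 72 lower, the cells with little Pf4, Ccl7 and Ccl12 gave 32 lower, MHC II-low against other chemokine-high cells gave 76 and 64, and Pf4-led against Ccl7 and Ccl12-led cells gave 207 and 239. TMM scaling gave 12 higher for the third of these and 42 and 130 for the last. The cause of these shifts was not tested, save that a lower filter tests more genes and that leaving out chemokine-high cells alone lowers ratios. No paired analysis was possible because no result comes from a test; each ratio already sets the classes against each other within a hashed sample.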
